A study of Mus musculus with 14 samples.

Results

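The genes for collagen chains were examined in mesenchymal cells of mouse forelimb buds, from progenitors sorted as Sox9 negative to chondroblasts. They were chosen by symbol alone, as every gene named Col followed by a type number, the letter a and a chain number, which gave 44 of the 24454 genes in the count table. All 14 libraries were used, and 40 of the 44 genes passed the filter on low counts. The cells came from forelimb buds of embryos that carry EGFP at the Sox9 locus (Sox9 IRES-EGFP, mixed Swiss Albino background), and the buds of many embryos were pooled for each library. In every gate, dead cells and cells bearing CD31, Ter119, CD45, EpCam, Gr1 or CD11b were excluded. The populations isolated at E10.5 were S9-JAG1+ limb bud mesenchymal progenitors (LMPs; Sox9 negative, JAG1 positive, SCA-1 negative), S9-Pαhi LMPs (negative for Sox9, JAG1 and SCA-1, high in PDGFRα) and S9+Pαhi osteo-chondrogenic progenitors (OCPs; Sox9 positive, high in PDGFRα), with 3 libraries each. A further population at E10.5 was S9-SCA-1+ cells (negative for Sox9 and JAG1, positive for SCA-1), with 2 libraries. S9+PαhiCol2a1+ chondroblasts (CBs), with 3 libraries, were taken at E11.5 through the gate used for the OCPs. CBs therefore differ from OCPs in stage as well as in population, and the effects of these cannot be told apart. The order S9-JAG1+ LMPs, S9-Pαhi LMPs, OCPs and CBs used below follows the pseudo-temporal order of the study and was not tested. The first 3 are of the same stage, so the steps between them are differences between populations, not measured changes over time. The CBs are named for Col2a1, but the gate given in the labels does not include it, and whether the cells were also selected on it is not clear. The level of this gene in them is therefore given as a description.

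Collagens are trimeric proteins of the extracellular matrix, built from chains that wind into a triple helix. The fibrillar collagens form fibrils, of which types I, III and V are typical of loose connective tissue, tendon and bone, while types II and XI are typical of cartilage. FACIT collagens attach to the surface of fibrils, and type IX does so in cartilage. Type IV builds the network of basement membranes, types VIII and X form other networks, and type VI forms beaded filaments around cells. SOX9 is the transcription factor that commits limb mesenchyme to cartilage, and Col2a1, Col9a1 and Col11a2 are among its known targets in chondrocytes.

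The libraries held 20316583 to 29162751 counted reads. Levels are given as CPM, the read count relative to the scaled library size, and 3 reads, at which a level was not told from absence, amounted to 0.101 to 0.149 CPM. Sox9 itself was at 437 ± 7.03 CPM (mean ± SD) in OCPs and 536 ± 111 CPM in CBs against 34.8 ± 2.46 CPM in S9-JAG1+ LMPs, 62.3 ± 4.50 CPM in S9-Pαhi LMPs and 11.0 ± 5.13 CPM in S9-SCA-1+ cells. The S9-SCA-1+ libraries differed from the mesenchymal ones in the markers of myogenic precursors, whose 8 genes summed to 1554 CPM in both and to 2.01 to 16.2 CPM elsewhere. In replicate 3 of the S9-SCA-1+ cells, 10 genes of blood cells, most of them hemoglobins, summed to 3198 CPM against 114 CPM in replicate 2 and 1.15 to 72.7 CPM in the other 12 libraries. Calls of collagen chain genes in S9-SCA-1+ cells are therefore also given without replicate 3. In cell mixtures of this kind, fewer cells that express a gene and less of its RNA per cell cannot be told apart.

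Collagen transcripts took up the smallest part of the libraries in S9-JAG1+ LMPs and S9-SCA-1+ cells and the largest in CBs. The 44 genes together made up 0.298, 0.278 and 0.259% of the scaled library size in the libraries of S9-JAG1+ LMPs and 0.493, 0.521 and 0.388% in those of S9-Pαhi LMPs. They made up 0.513, 0.576 and 0.574% in OCPs, 0.712, 0.724 and 0.724% in CBs and 0.265 and 0.234% in S9-SCA-1+ cells. All CB libraries lay above all others, the OCP and S9-Pαhi ranges overlapped, and so did those of S9-JAG1+ LMPs and S9-SCA-1+ cells. Without S9-SCA-1+ replicate 3 the S9-SCA-1+ value was 0.265%, which lies inside the range of S9-JAG1+ LMPs. These sums are descriptions and were not tested.

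**Figure D1:**
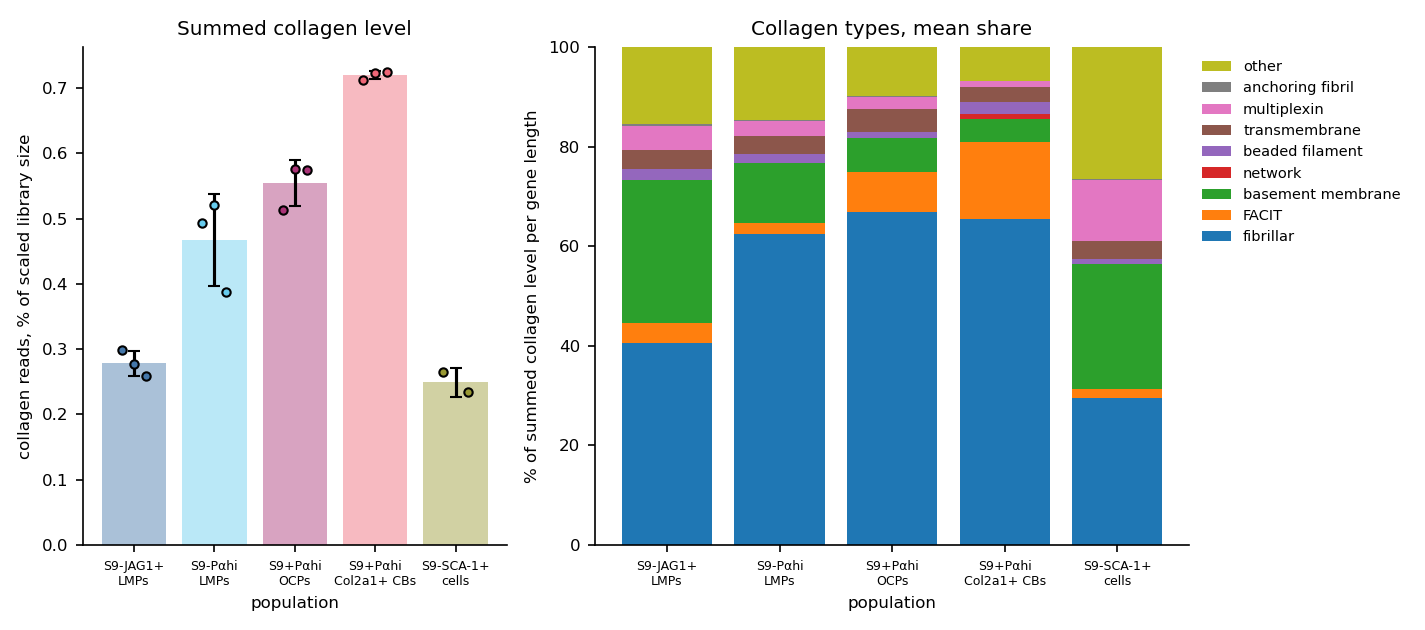
Left, summed level of the 44 collagen chain genes in % of the scaled library size, with a point for each library and bars with whiskers for mean ± SD; right, mean share of each collagen type in the summed level per gene length. The CB libraries sit at 0.712 to 0.724%, above all others, and the basement membrane share (green) is largest in S9-JAG1+ LMPs and S9-SCA-1+ cells.

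The make-up of the collagens also differed between the populations. When levels were divided by gene length, so that chains can be compared with each other, fibrillar chains accounted for 40.6% ± 1.46 of the collagen level in S9-JAG1+ LMPs, 62.5% ± 4.01 in S9-Pαhi LMPs, 66.8% ± 1.25 in OCPs and 65.4% ± 2.03 in CBs. FACIT chains were 4.08% ± 0.414, 2.25% ± 0.107, 8.22% ± 1.13 and 15.5% ± 2.72 in the same order. The share of basement membrane chains went down at each step, from 28.5% ± 1.92 through 11.9% ± 2.04 and 6.66% ± 0.763 to 4.71% ± 0.258. Their summed level was 904 to 979 CPM in S9-JAG1+ LMPs, 660 to 679 CPM in S9-Pαhi LMPs, 434 to 478 CPM in OCPs and 399 to 457 CPM in CBs. The ranges of OCPs and CBs thus overlapped. In S9-SCA-1+ cells, fibrillar chains were 29.6% ± 1.70, basement membrane chains 25.1% ± 0.411 and the multiplexins, types XV and XVIII, 12.3% ± 0.103. The leading chain per length was Col4a1 in S9-JAG1+ LMPs (92.9 ± 3.27 CPM per kb), Col3a1 in S9-Pαhi LMPs (225 ± 46.3) and in OCPs (195 ± 4.59), Col2a1 in CBs (299 ± 61.3) and Col26a1 in S9-SCA-1+ cells (128 ± 3.16). In OCPs, Col3a1 could not be placed above Col2a1 (193 ± 52.8) or Col1a2 (189 ± 11.9) by these means and SDs. In CBs the order after Col2a1 was Col1a2 (234 ± 30.5), Col3a1 (177 ± 36.6), Col26a1 (92.5 ± 8.80) and Col9a1 (89.8 ± 20.9), and the last 2 overlapped.

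**Figure D2:**
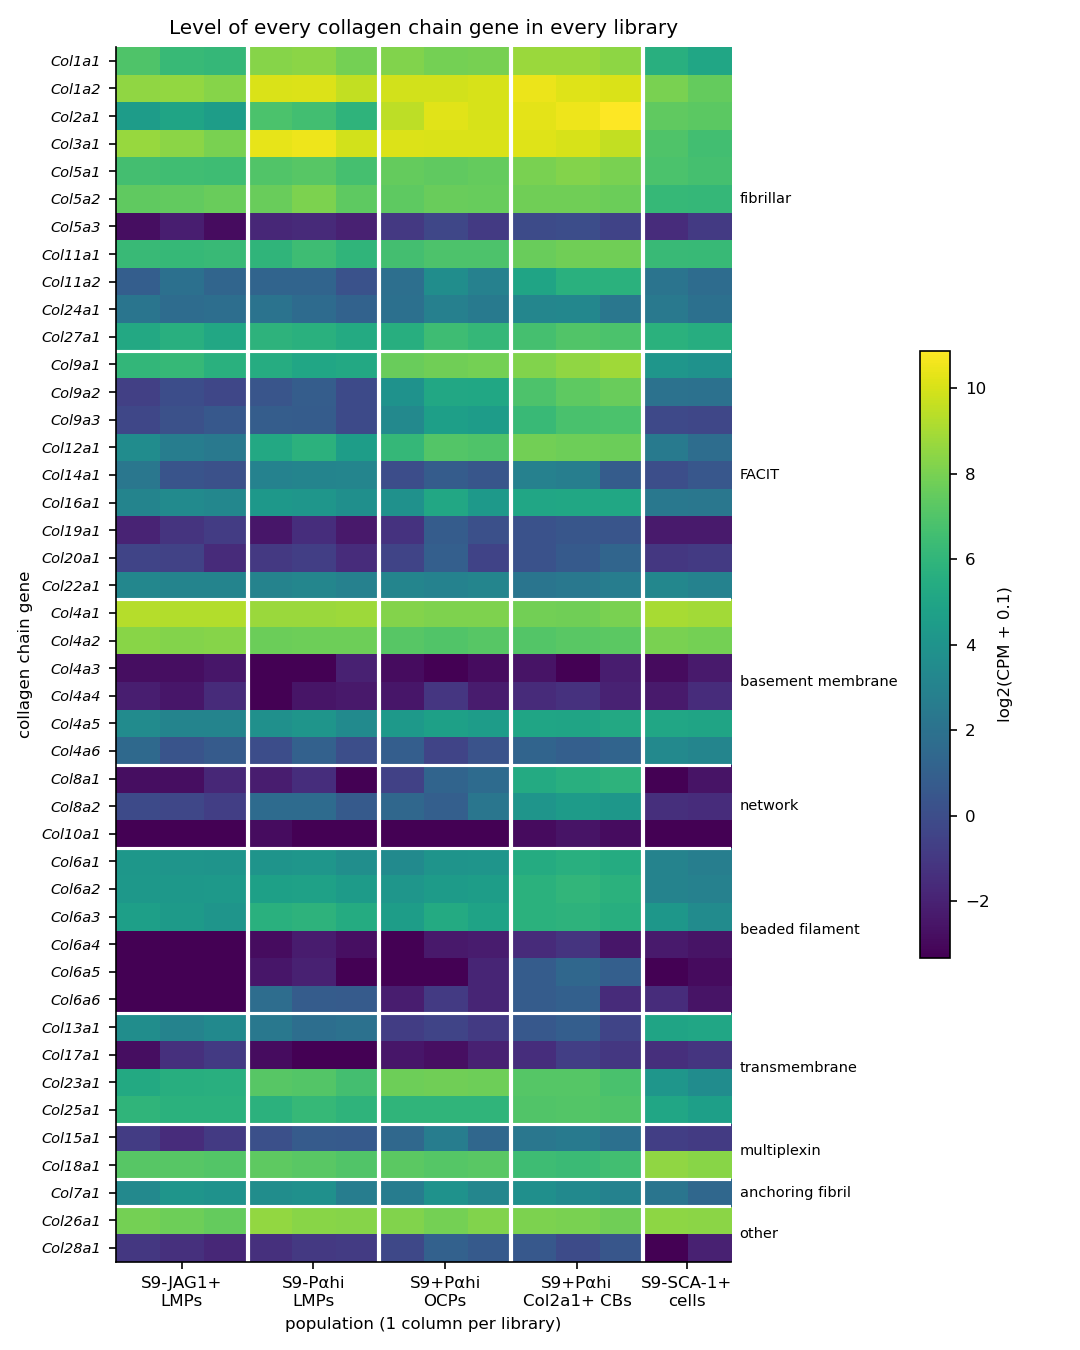
Level of all 44 collagen chain genes (rows, grouped by collagen type) in the 14 libraries (columns, grouped by population), coloured by log2(CPM + 0.1), which is not corrected for gene length. The rows of Col9a2, Col9a3, Col11a2 and Col8a1 brighten from OCPs to CBs, and those of Col10a1, Col4a3, Col4a4 and Col6a4 stay dark throughout.

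Differences between populations were tested with edgeR's quasi-likelihood test over 15125 genes. A gene was called where its Benjamini-Hochberg adjusted p did not exceed 0.1 and its log2 fold change reached 1.2 in either direction, and "rose" and "fell" are used below for called genes alone. Among the 5 populations jointly, 37 of the 40 tested collagen chain genes were called, where 29.2% of all tested genes were, and the exceptions Col4a2, Col22a1 and Col26a1 missed the limit on the fold change. In S9-Pαhi against S9-JAG1+ LMPs, 11 collagen chain genes rose and 2 fell, with 7.00% of all genes called (4.42% higher and 2.58% lower). From S9-Pαhi LMPs to OCPs 11 rose and 3 fell, with 4.84% of all genes called (3.48% higher and 1.36% lower). From OCPs to CBs 12 rose and none fell, with 7.77% of all genes called (6.60% higher and 1.16% lower). Of the 12, Col6a5 and Col17a1 passed the filter through CBs alone and could only count as higher there. Likewise Col5a3, Col8a1 and Col19a1, among the 11 that rose to OCPs, passed through OCPs and CBs alone and could hardly count as lower in OCPs. Col6a6 passed through S9-Pαhi LMPs and CBs alone, which favoured the direction of its call at each step. At an unadjusted p under 0.05, edgeR placed 4 members, Col4a1, Col18a1, Col22a1 and Col23a1, lower in CBs, all under the limit on the fold change, and DESeq2 likewise called 12 higher and 0 lower. In S9-SCA-1+ cells against the mean of the other populations 4 were higher and 20 lower, with 11.3% of all genes called (4.46% higher and 6.80% lower), and without S9-SCA-1+ replicate 3 the counts were 3 and 16. Among these, Col17a1 (higher) rests on a single read in S9-Pαhi LMPs and Col8a1 (lower) on 2 reads in S9-SCA-1+ cells. Col8a1, Col8a2, Col19a1 and Col28a1 passed the filter only through other populations, so they could hardly count as higher in S9-SCA-1+ cells. The libraries of the compared populations did not overlap for 21 of the 40 genes at the first step (39.7% of all genes), with 16 higher (19.8%) and 5 lower (19.9%). They did not overlap for 24 at the next step (26.7% of all genes), with 17 higher (14.9%) and 7 lower (11.8%). From OCPs to CBs this held for 28 (39.1% of all genes), with 24 higher (21.6%) and 4 lower (17.5%), and for S9-SCA-1+ cells against all other libraries for 16 (20.9%), with 3 higher (10.8%) and 13 lower (10.1%). The median log2 fold change of the members was 0.41, 0.36, 0.68 and -1.30, with medians of all genes of -0.0025, 0.020, -0.015 and -0.013. With the members that have no read in a population set to their lowest possible fold or left out, the first median was 0.38 and the others were unchanged to 2 decimals. Consecutive comparisons share a population and are not independent. The mean of 27 of the 40 genes was highest in CBs, where 32.5% of all tested genes had their highest mean, and 19 were lowest in S9-SCA-1+ cells, where 25.3% of all genes were.

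**Figure D3:**
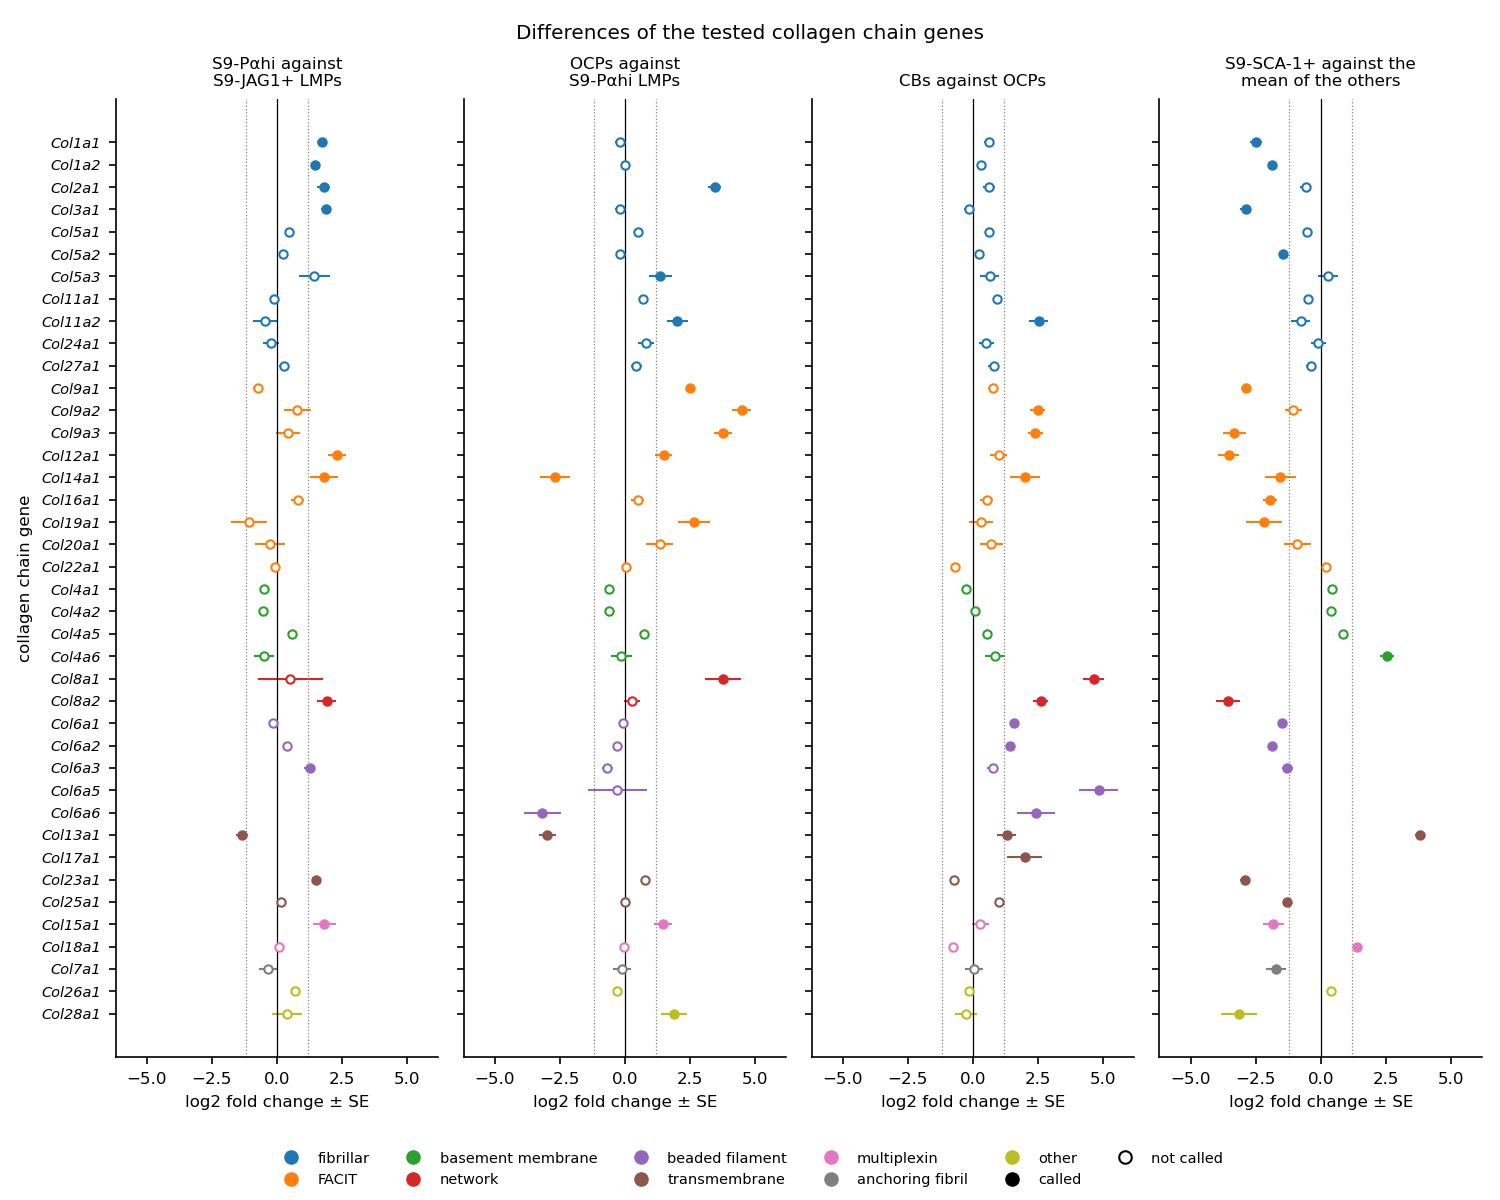
Log2 fold change with SE of each tested collagen chain gene (rows, coloured by type) in the 4 comparisons; filled points were called, open points were not, and dotted lines mark ±1.2. Fits that rest on a population with 0 to 2 reads in all are not drawn. Filled points lie to the right of 0 in the first 3 panels, except for Col13a1, Col14a1 and Col6a6, and mostly to the left in the panel of S9-SCA-1+ cells.

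The chains of the interstitial fibrils, types I and III, rose between the LMP populations and were not called at later steps. Col1a1, which encodes the α1 chain of type I collagen, was at 123, 77.3 and 70.6 CPM in the S9-JAG1+ libraries and at 316, 345 and 238 CPM in the S9-Pαhi libraries (log2 fold change 1.73, SE 0.20, adjusted p = 3.05e-05). It was at 289.9, 242 and 254 CPM in OCPs and 431, 429.6 and 349.9 CPM in CBs. All libraries of these last 3 populations lay above all those of S9-JAG1+ LMPs, and the values of CBs lay above those of OCPs without reaching the limit on the fold change (log2 fold change 0.62, SE 0.20, adjusted p = 0.0326). In the S9-SCA-1+ libraries Col1a1 was at 49.0 and 33.9 CPM, below every other library (log2 fold change -2.48, SE 0.23, adjusted p = 1.18e-06). Its partner Col1a2 rose alike, from 355 ± 35.4 to 989.6 ± 197 CPM (log2 fold change 1.48, SE 0.16, adjusted p = 1.16e-05), and was at 986 ± 62.0 CPM in OCPs, 1224 ± 159 CPM in CBs and 223 ± 52.7 CPM in S9-SCA-1+ cells.

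Col3a1, the chain of type III collagen, which co-assembles with type I in soft tissues, rose at the same step. Its levels were 417, 344 and 259 CPM in S9-JAG1+ LMPs and 1333, 1459.9 and 964 CPM in S9-Pαhi LMPs (log2 fold change 1.88, SE 0.20, adjusted p = 9.91e-06). In OCPs they were 1112, 1061 and 1087 CPM and in CBs 1163, 1028 and 763 CPM, and these 3 populations overlapped. S9-SCA-1+ cells had 125 and 96.7 CPM, again below every other library (log2 fold change -2.89, SE 0.22, adjusted p = 2.09e-07). Unlike Col1a1, Col3a1 had its highest mean in S9-Pαhi LMPs, so that per length the ratio of Col3a1 to Col1a1 was 4.33 to 4.51 in those libraries, 4.09 to 4.67 in OCPs and 2.32 to 2.88 in CBs.

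Col2a1, the single chain of type II collagen and the main collagen of cartilage, had the widest span of population means in CPM among the members. It was read in every population, at 23.2, 31.0 and 23.7 CPM in S9-JAG1+ LMPs and 114, 94.6 and 60.8 CPM in S9-Pαhi LMPs. OCPs had 695, 1228 and 1045 CPM and CBs 1274, 1451 and 1886 CPM. None of these 4 ranges overlapped, and Col2a1 rose at the first 2 steps, to S9-Pαhi LMPs (log2 fold change 1.79, SE 0.24, adjusted p = 1.01e-04) and to OCPs (log2 fold change 3.46, SE 0.25, adjusted p = 1.22e-06). In S9-Pαhi LMPs the mean of Sox9 was far below that of OCPs but above that of S9-JAG1+ LMPs. From OCPs to CBs the log2 difference was 0.64, under the limit, although CBs were the population named for this gene. S9-SCA-1+ cells held 168 and 159 CPM, above both LMP populations and below OCPs, with Sox9 lower than in any other population. In those cells 6 of the 13 tested genes on a list of cartilage markers, Col9a1 among them, were lower than in the mean of the others. Of all genes 6.80% were, and the median log2 fold change of the list was -2.73. Per length, Col2a1 stood to Col1a1 at 0.218 to 0.463 in S9-JAG1+ LMPs, 0.296 to 0.417 in S9-Pαhi LMPs, 2.77 to 5.86 in OCPs, 3.41 to 6.23 in CBs and 3.95 to 5.43 in S9-SCA-1+ cells.

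Types V and XI initiate fibrils and set their width, type V in connective tissue and type XI in cartilage. Col11a1 was at 79.6, 71.7 and 78.5 CPM in S9-JAG1+ LMPs, 63.8, 87.0 and 62.8 CPM in S9-Pαhi LMPs and 99.2, 122 and 120.3 CPM in OCPs. It was at 201, 222 and 227 CPM in CBs and 78.3 and 75.3 CPM in S9-SCA-1+ cells. The CB libraries lay above all others and those of OCPs above the remaining ones, but no step reached the limit on the fold change; the largest was that to CBs (log2 fold change 0.93, SE 0.12, adjusted p = 9.42e-05). Col11a2 behaved otherwise, with 1.80, 3.73 and 2.42 CPM in S9-JAG1+ LMPs, 2.28, 2.26 and 1.10 CPM in S9-Pαhi LMPs, 3.61, 12.2 and 7.60 CPM in OCPs and 30.7, 51.6 and 53.2 CPM in CBs. It rose both to OCPs (log2 fold change 2.02, SE 0.42, adjusted p = 0.00614) and to CBs (log2 fold change 2.54, SE 0.37, adjusted p = 2.24e-04), and neither pair of ranges overlapped, although OCP replicate 1 lay within the ranges of S9-JAG1+ LMPs and S9-SCA-1+ cells (4.37 and 3.21 CPM). Mean levels in S9-JAG1+ LMPs, S9-Pαhi LMPs, OCPs, CBs and S9-SCA-1+ cells, in this order, were 93.5, 128, 179, 274 and 109 CPM for Col5a1 and 181, 211, 185, 217 and 72.0 CPM for Col5a2. No step of either was called, and Col5a2 was lower in S9-SCA-1+ cells (log2 fold change -1.46, SE 0.15, adjusted p = 4.09e-06). The means of the further fibrillar chains were 0.0694, 0.193, 0.518, 0.798 and 0.336 CPM for Col5a3, 3.65, 3.10, 5.50, 7.87 and 4.44 CPM for Col24a1 and 41.4, 49.9, 68.0, 118 and 49.7 CPM for Col27a1. Col5a3 was called from S9-Pαhi LMPs to OCPs (log2 fold change 1.37, adjusted p = 0.0577), on at most 27 reads a library, and this call was lost when OCP replicate 2 or either of S9-Pαhi replicates 1 and 3 was left out.

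**Figure D4:**
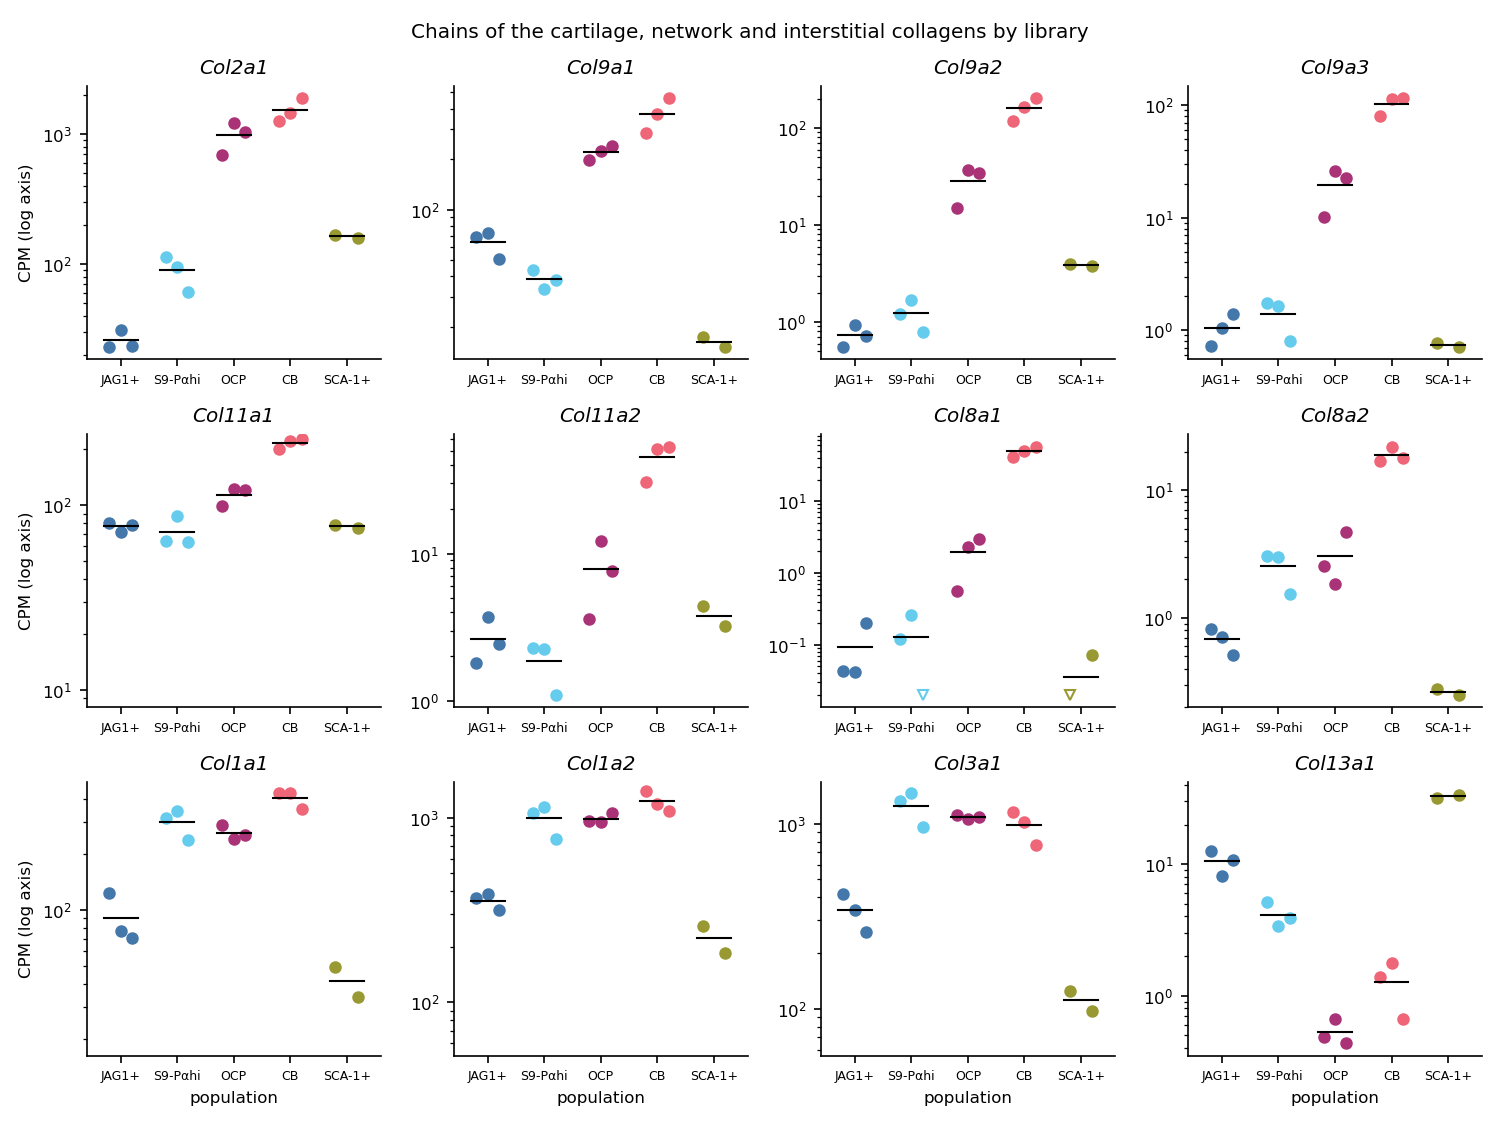
CPM of 12 collagen chain genes in each library (points, log axis, a different range in each panel), with the population mean as a line; open triangles are libraries without a read. Col9a2, Col9a3, Col11a2 and Col8a1 stand low in both LMP populations and in S9-SCA-1+ cells, higher in OCPs and highest in CBs, whereas Col1a1, Col1a2 and Col3a1 step up between the LMP populations.

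The chains of type IX, the FACIT collagen that decorates type II fibrils in cartilage, differed from each other in the populations sorted as Sox9 negative. Col9a1 was at 68.2, 72.6 and 51.0 CPM in S9-JAG1+ LMPs and lower, at 43.5, 33.7 and 38.0 CPM, in S9-Pαhi LMPs, without overlap but under the limit on the fold change (log2 fold change -0.74, SE 0.17, adjusted p = 0.00596). It rose to 196, 222 and 239 CPM in OCPs (log2 fold change 2.51, SE 0.17, adjusted p = 8.48e-07) and stood at 287, 369.9 and 459 CPM in CBs (log2 fold change 0.76, SE 0.16, adjusted p = 0.00391). In S9-SCA-1+ cells it was at 17.3 and 15.2 CPM, the lowest of all populations (log2 fold change -2.87, SE 0.20, adjusted p = 5.84e-08). The CB and OCP ranges were also apart, but this difference is under the limit. Col9a2 and Col9a3 were low in both LMP populations. The values of Col9a2 were 0.557, 0.922 and 0.714 CPM in S9-JAG1+ LMPs, 1.22, 1.69 and 0.797 CPM in S9-Pαhi LMPs, 14.9, 36.6 and 34.6 CPM in OCPs and 119, 165 and 202 CPM in CBs. For Col9a3 they were 0.728, 1.05 and 1.39, 1.75, 1.65 and 0.797, 10.1, 25.8 and 22.6 and 80.3, 114 and 115 CPM in the same order. Both rose to OCPs (Col9a2 log2 fold change 4.50, SE 0.36, adjusted p = 3.55e-06; Col9a3 log2 fold change 3.76, SE 0.35, adjusted p = 1.26e-05) and again to CBs (Col9a2 log2 fold change 2.50, SE 0.28, adjusted p = 2.93e-05; Col9a3 log2 fold change 2.40, SE 0.28, adjusted p = 4.02e-05), with no overlap at either step. In S9-SCA-1+ cells Col9a2 was at 3.99 and 3.81 CPM and Col9a3 at 0.77 and 0.712 CPM. Of the exonic bases of Col9a3, 6.07% overlap Tcfl5 on the opposite strand, and the counts are not known to separate strands.

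As these chains form 1 molecule, their ratio was followed in each library. Per length, Col9a1 exceeded Col9a2 by 47.4 to 81.3 times in S9-JAG1+ LMPs, 13.2 to 31.6 times in S9-Pαhi LMPs, 4.03 to 8.74 times in OCPs, 1.49 to 1.60 times in CBs and 2.65 to 2.88 times in S9-SCA-1+ cells. The levels were closest in CBs, and in LMPs the ratio rests on as few as 13 reads of Col9a2. The ratio of Col9a2 to Col9a3 was 1.47 to 1.59 in OCPs and 1.51 to 1.82 in CBs, but 5.37 to 5.54 in S9-SCA-1+ cells. For type XI, the ratio of Col11a1 to Col11a2 was likewise lowest in CBs, at 16.5 to 37.9 in S9-JAG1+ LMPs, 24.0 to 49.1 in S9-Pαhi LMPs, 8.58 to 23.5 in OCPs and 3.65 to 5.61 in CBs. Col1a2 over Col1a1 spanned less, with 3.39 to 5.64 in S9-JAG1+ LMPs, 3.67 to 3.82 in S9-Pαhi LMPs, 3.75 to 4.72 in OCPs, 3.13 to 3.69 in CBs and 6.03 to 6.22 in S9-SCA-1+ cells. The protein of type I holds a pair of α1 chains for each α2 chain, and the read counts stand the other way round in every library. Read counts divided by a single length per gene measure transcripts only roughly. Col5a1 over Col5a2 increased from 0.349 to 0.467 in S9-JAG1+ LMPs to 0.922 to 1.08 in CBs and 1.16 to 1.23 in S9-SCA-1+ cells. These ratios are descriptions and were not tested.

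**Figure D5:**
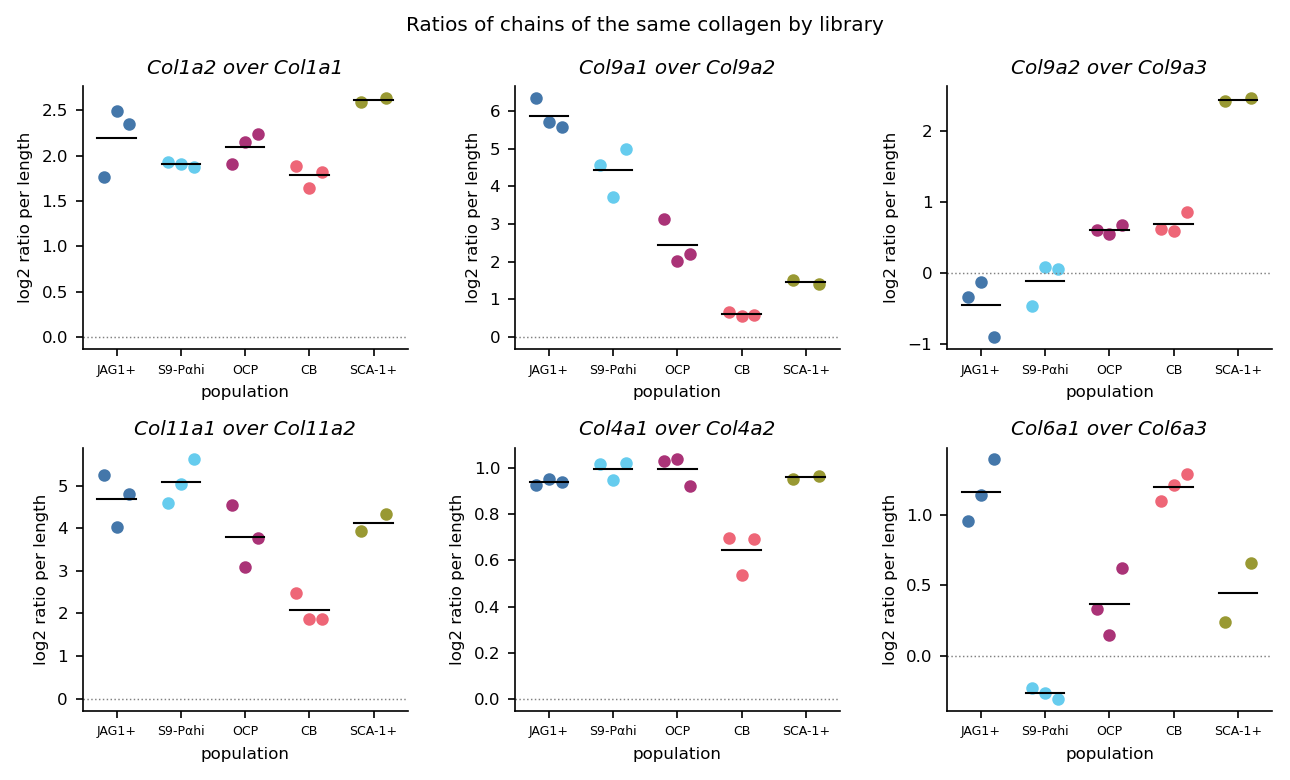
Log2 ratio, per gene length, between 2 chains of the same collagen in each library (points) with the population mean as a line; 0 is an equal level. The ratios of Col9a1 to Col9a2 and of Col11a1 to Col11a2 are lowest in CBs, whereas Col4a1 over Col4a2 is near 1 (log2) in all populations but CBs, where the libraries span 0.54 to 0.70.

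Col9a2, Col9a3, Col11a2 and Col8a1 were the 4 members that rose both to OCPs and to CBs and were not called between the LMP populations. The RefSeq table of promoters (GRCm38.p6), in which 35 of the 44 members were found, holds the 250 bases before the start for 3 of them and for 2 starts of Col9a1. Annotations place some starts differently, so the lines below give only the stretch of each window that is free of GENCODE exons, 5′ to 3′ on the strand of the gene. Where the RefSeq gene entry starts inside the window, bases past that start were also left out. The second start of Col9a1 lies within its gene entry, which begins at chr1:24177589, so that line is a stretch inside the gene. The stretch of Col11a2 is 31 bases and is not shown. Capitals mark GGGCGG or its reverse complement CCGCCC, the GC box to which SP1-type factors bind.
Col8a1, chr16:57754738-57754987, - strand: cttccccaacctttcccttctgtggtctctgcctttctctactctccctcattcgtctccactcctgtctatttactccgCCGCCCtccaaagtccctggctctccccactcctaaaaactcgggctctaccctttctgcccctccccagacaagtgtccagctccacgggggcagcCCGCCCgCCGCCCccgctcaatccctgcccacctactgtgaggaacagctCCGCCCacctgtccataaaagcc
Col9a2, chr4:121039316-121039384, + strand: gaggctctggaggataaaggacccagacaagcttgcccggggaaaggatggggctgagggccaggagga
Col9a1 first start, chr1:24177360-24177588, + strand: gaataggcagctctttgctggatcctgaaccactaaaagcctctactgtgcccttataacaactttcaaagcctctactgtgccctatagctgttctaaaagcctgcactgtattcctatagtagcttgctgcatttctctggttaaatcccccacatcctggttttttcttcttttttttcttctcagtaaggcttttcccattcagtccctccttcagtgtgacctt
Col9a1 second start, chr1:24194953-24195186, + strand: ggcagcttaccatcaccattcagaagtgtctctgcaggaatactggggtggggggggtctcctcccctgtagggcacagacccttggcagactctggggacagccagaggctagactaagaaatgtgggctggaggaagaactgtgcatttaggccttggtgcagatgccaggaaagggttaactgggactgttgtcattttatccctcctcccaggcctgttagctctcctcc

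Over the whole windows of 250 bases, GC boxes stood at 4 places for Col8a1 and at 2 places each for Col9a2 and Col11a2 (for Col9a2 outside the stretch shown), and at none for the starts of Col9a1. These windows were 57.6 to 60.8% GC for the 3 genes and 43.6% and 56.0% GC for the starts of Col9a1. GC boxes were found in 32.7% of all 32851 windows and in 22 of the 38 windows of members. ACAAT or ATTGT, a form of the letters bound by SOX factors, occurred in none of these 5 windows, in 27.7% of all and in 2 of the 38 of members. TATAAA or its reverse complement occurred in that of Col11a2 alone among the 5 and in 12.4% of all, and CCAAT or ATTGG in that of the second start of Col9a1 alone and in 33.8% of all. Motif matches are descriptions of the letters in these windows. Other forms of the SOX site were not searched, so the windows cannot be said to lack SOX sites.

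Among the other FACIT collagens, which bind to fibrils of loose tissue, tendon and perichondrium, Col12a1 rose at the first 2 steps. It was at 11.9, 6.45 and 5.35 CPM in S9-JAG1+ LMPs, 38.3, 55.4 and 23.5 CPM in S9-Pαhi LMPs (log2 fold change 2.31, SE 0.35, adjusted p = 2.94e-04) and 69.4, 135 and 125 CPM in OCPs (log2 fold change 1.49, SE 0.32, adjusted p = 0.00839). CBs had 236, 212 and 207 CPM and S9-SCA-1+ cells 5.74 and 3.24 CPM. Each of the 4 mesenchymal ranges lay above the one before it. Col14a1, a FACIT of tendon and dermis, went up, down and up again, at 4.88, 1.17 and 1.03 CPM in S9-JAG1+ LMPs, 7.85, 8.42 and 8.57 CPM in S9-Pαhi LMPs, 0.933, 1.66 and 1.30 CPM in OCPs and 7.37, 6.54 and 1.69 CPM in CBs. All 3 steps were called (log2 fold changes 1.82, -2.68 and 2.01, adjusted p = 0.0269, 0.00740 and 0.0191), but S9-JAG1+ replicate 1 and CB replicate 3 stood apart from their groups, and the first log2 fold change was 2.90 without S9-JAG1+ replicate 1, while its call was lost without S9-JAG1+ replicate 2 (adjusted p = 0.105) or 3 (adjusted p = 0.104).

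Col16a1 was at 9.64 ± 1.28, 16.8 ± 3.12, 23.8 ± 11.0 and 34.2 ± 0.793 CPM along the 4 populations with no called step, and at 5.00 and 4.81 CPM in S9-SCA-1+ cells, where it was lower than in the mean of the others (log2 fold change -1.96, SE 0.27, adjusted p = 6.31e-05). Col19a1, a FACIT found in basement membrane zones and muscle, was at 0.0813, 0.263 and 0.0996 CPM in S9-Pαhi LMPs and 0.325, 1.66 and 1.01 CPM in OCPs (log2 fold change 2.66, SE 0.60, adjusted p = 0.0104), on at most 38 reads a library. Col20a1 did not reach a call at any step, with means of 0.489, 0.394, 1.04, 1.68 and 0.406 CPM over S9-JAG1+ LMPs, S9-Pαhi LMPs, OCPs, CBs and S9-SCA-1+ cells. Col22a1, known from tissue junctions such as that of muscle and tendon, was not called in any comparison, at 8.79, 8.21, 8.40, 5.27 and 8.57 CPM in this order. Col28a1, which is of another type and known from peripheral nerve, was at 0.285, 0.414 and 0.448 CPM in S9-Pαhi LMPs and 0.730, 2.00 and 1.56 CPM in OCPs (log2 fold change 1.89, SE 0.49, adjusted p = 0.0215). From S9-Pαhi LMPs to OCPs, where Col19a1 and Col28a1 rose, 4 of 7 tested markers of neural crest and glia also rose, as did 3.48% of all genes. From OCPs to CBs 3 of the markers rose and 1 fell (6.60% and 1.16% of all genes), with a median log2 fold change of -0.06. The 8 genes of this list summed to 6.53 to 7.37 CPM in S9-Pαhi LMPs, 13.1 to 24.0 CPM in OCPs and 24.5 to 32.9 CPM in CBs. Sox10, which defines neural crest and glial cells, was at 0.0542 ± 0.0565 CPM in S9-Pαhi LMPs, 2.98 ± 1.07 CPM in OCPs and 2.78 ± 0.365 CPM in CBs, and the part of such cells in the levels of Col19a1, Col20a1 and Col28a1 was not tested.

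Type IV, the network of basement membranes, was carried by Col4a1 and Col4a2, whose means over S9-JAG1+ LMPs, S9-Pαhi LMPs, OCPs, CBs and S9-SCA-1+ cells were 616, 439, 288, 238 and 502 CPM and 312, 214, 140.4, 148 and 251 CPM. Both were highest in S9-JAG1+ LMPs, with 639, 595 and 614 CPM of Col4a1 there, 436, 429 and 451 CPM in S9-Pαhi LMPs and 309, 276 and 280.1 CPM in OCPs. The ranges of these 3 populations did not overlap and the adjusted p-values were 3.47e-04 and 1.37e-04, but the differences were under the limit (log2 fold changes -0.49 and -0.61). Their genes lie head to head, at chr8:11198423-11312889 and chr8:11312805-11449287 (mm10), with 85 bases of overlap, and Col4a1 over Col4a2 per length was 1.90 to 1.94, 1.93 to 2.03, 1.90 to 2.05 and 1.94 to 1.95 in the populations of E10.5 and 1.45 to 1.62 in CBs. Among the 12 ratios computed, this one varied least over the libraries of E10.5.

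Col4a5 and Col4a6, a further head to head pair on chromosome X, differed more from each other. Col4a5 had means of 9.39, 14.0, 23.3, 33.9 and 32.5 CPM in the same order and Col4a6 of 1.86, 1.30, 1.19, 2.16 and 9.31 CPM. Col4a6 was higher in both S9-SCA-1+ libraries, at 10.0 and 8.58 CPM, than in every other library (log2 fold change 2.55, SE 0.27, adjusted p = 5.62e-06). Per length, Col4a5 exceeded Col4a6 by 3.41 to 3.76 times in S9-SCA-1+ cells and by 11.6 to 40.6 times in OCPs. The third such pair, Col4a3 and Col4a4, was below the filter, with at most 3 and 9 reads in any library. Endothelial markers summed to 12.2 to 14.8 CPM over 10 genes in S9-JAG1+ LMPs, to up to 19.7 CPM in S9-Pαhi LMPs, 10.4 to 12.2 CPM in OCPs, 9.42 to 10.8 CPM in CBs and 22.1 to 26.5 CPM in S9-SCA-1+ cells, and their part in the type IV levels was not tested.

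Both chains of the network-forming type VIII collagen rose from OCPs to CBs. Col8a1 was at 0.0428, 0.0419 and 0.198 CPM in S9-JAG1+ LMPs and 0.122, 0.263 and 0 CPM in S9-Pαhi LMPs, which is 0 to 7 reads a library. It was at 0.568, 2.33 and 3.00 CPM in OCPs (log2 fold change 3.78, SE 0.70, adjusted p = 0.00268) and at 41.3, 50.4 and 57.4 CPM in CBs (log2 fold change 4.65, SE 0.40, adjusted p = 3.70e-06). OCPs and CBs did not overlap with each other or with any other population, and OCP replicate 1 was the lowest of its group. Col8a2, whose product can form homotrimers or join Col8a1, was above Col8a1 in both LMP populations. It was at 0.813, 0.712 and 0.515 CPM in S9-JAG1+ LMPs, 3.05, 3.01 and 1.54 CPM in S9-Pαhi LMPs (log2 fold change 1.91, SE 0.37, adjusted p = 0.00200) and 2.56, 1.85 and 4.74 CPM in OCPs. It rose to 16.9, 21.9 and 17.9 CPM in CBs (log2 fold change 2.61, SE 0.30, adjusted p = 3.06e-05). Per length, Col8a1 was 0.188 to 1.06 of Col8a2 in OCPs and 1.96 to 2.72 times as high in CBs. In S9-SCA-1+ cells Col8a2 was at 0.28 and 0.249 CPM (log2 fold change -3.56, SE 0.45, adjusted p = 2.52e-05) and Col8a1 at 0 and 2 reads. Col10a1, the other network collagen and the mark of hypertrophic chondrocytes, was not told from absence, with 5 reads in all libraries together and at most 2 in any.

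Type VI forms beaded filaments that surround cells, and its 3 main chains rose at different steps. Col6a3 rose between the LMP populations, from 21.2 ± 4.51 to 50.6 ± 7.26 CPM (log2 fold change 1.25, SE 0.21, adjusted p = 6.61e-04; the call was lost without S9-JAG1+ replicate 3 or S9-Pαhi replicate 2), and was at 31.6 ± 8.28 CPM in OCPs and 53.4 ± 5.26 CPM in CBs. Col6a1 and Col6a2 instead rose from OCPs to CBs. Col6a2 was at 19.1, 19.3 and 20.9 CPM in S9-JAG1+ LMPs, 26.9, 28.2 and 22.0 CPM in S9-Pαhi LMPs, 17.6, 22.0 and 23.6 CPM in OCPs and 54.2, 63.9 and 54.6 CPM in CBs (log2 fold change 1.45, SE 0.12, adjusted p = 3.34e-06). Col6a1 had 11.2, 16.5 and 16.9 CPM in OCPs and 42.8, 49.4 and 42.8 CPM in CBs (log2 fold change 1.60, SE 0.16, adjusted p = 8.48e-06). CBs lay above every other library for both. Col6a1 over Col6a3 per length was 1.95 to 2.63 in S9-JAG1+ LMPs, 0.808 to 0.851 in S9-Pαhi LMPs, 1.11 to 1.54 in OCPs and 2.15 to 2.45 in CBs. In S9-SCA-1+ cells Col6a1 was at 8.01 and 6.62 CPM and Col6a2 at 7.94 and 7.34 CPM, and all 3 chains were lower than in the mean of the others (log2 fold changes -1.49, -1.87 and -1.29).

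The long chains of type VI, which can take the place of α3, lie next to each other on chromosome 9 and were read in different populations. Col6a6 had no read in S9-JAG1+ LMPs, 3.21, 1.65 and 1.59 CPM in S9-Pαhi LMPs, 0.122, 0.428 and 0.181 CPM in OCPs and 1.68, 1.95 and 0.236 CPM in CBs. Against 3 reads in each S9-JAG1+ library, the level in S9-Pαhi LMPs was at least 17.3-fold higher. It fell to OCPs (log2 fold change -3.17, SE 0.72, adjusted p = 0.0135) and rose to CBs (log2 fold change 2.44, SE 0.73, adjusted p = 0.0284), where replicate 3 stood within the range of OCPs. Col6a5 was near absence up to OCPs, where the libraries held 0, 0 and 5 reads, and was at 1.68, 2.60 and 1.88 CPM in CBs (log2 fold change 4.84, SE 0.74, adjusted p = 6.53e-04), without overlap. All OCP reads of it were in replicate 3, without which no fold change can be given, and it passed the filter through CBs alone and thus had to differ. Col6a4 had at most 10 reads in any library and was not tested.

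The transmembrane collagens, which are anchored in the cell membrane and can be shed, did not share a course. Col13a1, which is found at adhesion sites and at the neuromuscular junction, was at 12.6, 8.17 and 10.7 CPM in S9-JAG1+ LMPs, 5.12, 3.38 and 3.89 CPM in S9-Pαhi LMPs, 0.487, 0.666 and 0.434 CPM in OCPs and 1.38, 1.78 and 0.668 CPM in CBs. It fell at the first step (log2 fold change -1.34, SE 0.24, adjusted p = 0.00115) and at the next (log2 fold change -2.98, SE 0.33, adjusted p = 4.68e-05) and rose slightly to CBs (log2 fold change 1.30, SE 0.36, adjusted p = 0.0169). The first call was lost without S9-JAG1+ replicate 1, and the last without OCP replicate 3 or CB replicate 2. In S9-SCA-1+ cells Col13a1 was at 31.7 and 33.6 CPM, above every other library, with the largest rise among the members in that comparison (log2 fold change 3.81, SE 0.18, adjusted p = 1.24e-09).

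Col23a1 took another course, at 39.0, 47.2 and 48.8 CPM in S9-JAG1+ LMPs and 145, 134 and 101 CPM in S9-Pαhi LMPs (log2 fold change 1.49, SE 0.16, adjusted p = 1.03e-05). It was highest in OCPs, at 213, 222 and 218 CPM, lower again in CBs, at 139.8, 142 and 112 CPM, and lowest in S9-SCA-1+ cells, at 17.8 and 12.0 CPM (log2 fold change -2.92, SE 0.18, adjusted p = 2.35e-08). The ranges of S9-Pαhi LMPs and CBs overlapped, while OCPs lay above and S9-JAG1+ and S9-SCA-1+ libraries below them, and the differences of OCPs from S9-Pαhi LMPs and from CBs were under the limit (log2 fold changes 0.78 and -0.73 in the order of the populations). Col25a1, known from brain and from the innervation of muscle, had means of 56.3, 63.0, 63.2, 128 and 29.6 CPM over the 5 populations in the order used above, with CBs above and S9-SCA-1+ cells below all others (log2 fold change -1.31, SE 0.12, adjusted p = 1.01e-06). Col17a1, a component of the hemidesmosomes of epithelia, was read at most 15 times in a library, with 1, 7 and 11 reads in S9-JAG1+ LMPs, 1, 0 and 0 in S9-Pαhi LMPs, 2, 1 and 4 in OCPs and 8, 15 and 10 in CBs. The ratio between S9-JAG1+ and S9-Pαhi LMPs was 18.7 with an exact 95% interval of 2.97 to 776 for counting error, and the call from OCPs to CBs, for which it passed the filter through CBs alone, was lost without OCP replicate 1 or CB replicate 2. The 10 ectodermal markers summed to at most 12.0 CPM in a library of S9-JAG1+ LMPs, 10.3 CPM in S9-Pαhi LMPs and 22.6 CPM in CBs, and their part in the Col17a1 reads was not tested.

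The multiplexins are collagens of basement membrane zones, and the 2 of them were highest in different populations. Col15a1 was at 0.471, 0.251 and 0.436 CPM in S9-JAG1+ LMPs, 1.02, 1.58 and 1.54 CPM in S9-Pαhi LMPs (log2 fold change 1.82, SE 0.43, adjusted p = 0.00739) and 2.72, 6.28 and 2.57 CPM in OCPs (log2 fold change 1.47, SE 0.35, adjusted p = 0.0128; the call was lost without OCP replicate 2). In CBs it was at 4.88, 5.51 and 3.65 CPM, overlapping with OCPs. Col18a1, the source of endostatin, was at 147, 146 and 134 CPM in S9-JAG1+ LMPs, 164, 151 and 133 CPM in S9-Pαhi LMPs and 155, 139 and 149 CPM in OCPs, at 88.0 ± 6.96 CPM in CBs and at 364 and 322 CPM in S9-SCA-1+ cells, which lay above all others (log2 fold change 1.41, SE 0.08, adjusted p = 5.17e-09). Col7a1, which forms anchoring fibrils under epithelia, had means of 14.0, 11.0, 10.2, 10.6 and 3.49 CPM and was called in S9-SCA-1+ cells alone, where it was lower (log2 fold change -1.70, SE 0.38, adjusted p = 0.00289). Col26a1, an abundant chain in every population, had means of 211, 341, 277, 250.2 and 347 CPM and no called difference.

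In S9-SCA-1+ cells the lower members came from most types, and Col13a1, Col18a1 and Col4a6 were the higher ones besides the sparse Col17a1. Of the types, 4 of 11 fibrillar, 6 of 9 FACIT, and 3 of 5 tested beaded filament chains were lower, with median log2 fold changes of -0.58, -1.96 and -1.49, and both tested network chains were lower. Both network chains, and Col19a1 among the lower FACIT chains, passed the filter only through other populations, so their direction was favoured in advance. Of all tested genes, 6.80% were lower in this comparison. Without replicate 3, the library with the hemoglobin reads, the log2 fold changes were 3.77 for Col13a1, 2.66 for Col4a6, -3.48 for Col8a2, -2.66 for Col23a1, -2.71 for Col3a1, -1.93 for Col16a1 and -1.82 for Col6a2, all still called. Col28a1, at 0 and 4 reads in these libraries, was lower than in the mean of the others (log2 fold change -3.13, SE 0.69, adjusted p = 0.00267), and without replicate 3 no read of it remained, so that no fold change is given. The calls of Col14a1, Col17a1, Col19a1, Col25a1 and Col6a3 were lost without replicate 3. The myogenic markers moved with all of these differences, and their part in them was not tested.

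Members that lie next to each other on a chromosome were set side by side. Col3a1 and Col5a2, tail to tail on chromosome 1 with 24624 bases between them, changed by log2 fold changes of 1.88 and 0.22 between the LMP populations. Col9a1 and Col19a1, tail to tail with 4944 bases between them, both rose to OCPs (2.51 and 2.66). In the row of Col6a2, Col6a1 and Col18a1 on chromosome 10, the first 2 rose to CBs (1.45 and 1.60) while Col18a1, 326133 bases from Col6a1, changed by -0.75. Col9a3 and Col20a1, 361130 bases apart on chromosome 2, changed by 2.40 and 0.71 at that step, the latter without a call.

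The genes that serve collagen synthesis were set beside the chains. Of 20 tested genes for the folding and modification of chains, among them the prolyl and lysyl hydroxylases, 1 rose from S9-JAG1+ to S9-Pαhi LMPs, 1 from there to OCPs and 2 to CBs, where 4.42%, 3.48% and 6.60% of all genes were higher. The medians of this list were 0.07, 0.03 and 0.48 in log2 fold change, beside the medians of all genes given above. The genes called at the last step were P4ha3, a subunit of a prolyl 4-hydroxylase (1.77 CPM in OCPs and 16.6 CPM in CBs, log2 fold change 3.23, SE 0.32, adjusted p = 1.09e-05), and Creb3l1, a transcription factor of the secretory pathway (log2 fold change 1.42, SE 0.34, adjusted p = 0.00816). Of 16 tested genes for secretion, processing and crosslinking, 2 rose and 1 fell between the LMP populations (4.42% and 2.58% of all genes). To OCPs 1 fell (1.36%) and to CBs 4 rose, and in S9-SCA-1+ cells 1 was higher (4.46%) and 2 were lower (6.80%). Those that rose to CBs, where 6.60% of all genes did, were Lox, a lysyl oxidase that crosslinks collagen (log2 fold change 2.05, SE 0.32, adjusted p = 4.17e-04), Loxl4 of the same family (1.59), Sec24d of the vesicle coat (1.24) and the procollagen proteinase Tll1 (1.21). Lox did not follow the order of the fibrillar chains, since it was at 0.821 ± 0.242 CPM in S9-JAG1+ LMPs, 9.39 ± 1.98 CPM in S9-Pαhi LMPs, 2.90 ± 1.13 CPM in OCPs, 12.0 ± 4.58 CPM in CBs and 17.8 ± 0.971 CPM in S9-SCA-1+ cells, where it was higher than in the mean of the others (log2 fold change 2.13, SE 0.25, adjusted p = 1.10e-05). Of 7 tested collagen receptors 1 rose to CBs, the integrin subunit Itga11 (log2 fold change 1.46, SE 0.23, adjusted p = 4.12e-04). In S9-SCA-1+ cells, where 6.80% of all genes were lower, 3 of the receptors were. These were the receptor kinase Ddr2 (25.9 CPM there and 258 to 357 CPM in S9-JAG1+ LMPs and CBs, log2 fold change -3.64, SE 0.17, adjusted p = 9.18e-10), Itga11 (-2.52) and Itga1 (-1.21).

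The collagen chains were set beside a list of cartilage markers. Of 13 tested cartilage markers, a list that includes Sox9, Col2a1, Col9a1 and Col11a1, 1 rose from S9-JAG1+ to S9-Pαhi LMPs, which was Col2a1. To OCPs 7 rose, Sox9, Col2a1 and Col9a1 among them, and to CBs 6, none of which is a collagen. Of all genes, 4.42%, 3.48% and 6.60% were higher at these steps. The largest fold changes at the last step were those of Acan, the aggrecan core protein, which was near the limit of 3 reads in OCPs (0.127 ± 0.0844 CPM in OCPs and 9.55 ± 5.78 CPM in CBs, log2 fold change 6.22, SE 0.68, adjusted p = 2.23e-05), Matn1 (4.65) and Matn4 (4.64), both matrilins that bind collagen fibrils. The collagens on this list, Col2a1, Col9a1 and Col11a1, did not reach a call there, whereas Col9a2, Col9a3 and Col11a2, which are not on it, did.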

How the data were processed

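Total RNA of FACS-sorted forelimb bud cells was extracted on columns (RNeasy micro), selected for poly(A) and sequenced as single-end reads with a kit (NEBNext Ultra II RNA) for which no strand setting is stated. The deposited values are raw read counts per gene. Per the labels and the methods of the study, the authors aligned reads with STAR to mm10, kept a single position for a read that maps to several, and used QuasR to count the reads whose first base falls in any exon of a RefSeq transcript. Reads of near-identical copies or of overlapping genes may thus be misplaced.

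Gene IDs were matched to symbols for 24374 of 24454 entries; the 80 others held 0.358% of the reads. Members and gene lists were chosen with earlier results of these data known. The filter filterByExpr, applied by population, left 15125 genes with 40 members, and counts were scaled by TMM and fitted with all 14 libraries in a single model, so that the populations share an estimate of the spread, by the quasi-likelihood test of edgeR 4.0.16 in R 4.3.3. Each population was compared with the one before it, and S9-SCA-1+ cells with the mean of the others. Adjusted p-values follow Benjamini and Hochberg and cover the whole table of tested genes, SEs were derived from the F statistic, and the fit was first tested on simulated data. The study calls the replicates biological, and the labels number them without saying whether they come from separate sorts. The p-values therefore measure the spread between these pooled samples. Replicates of a population differed by more than sampling noise (chi-square per degree of freedom 7.80 to 76.3). Totals of 20316583 to 29162751 counts set the limit of 3 reads; intervals and this limit cover counting error alone. Levels per length divide CPM by the gene length in the deposited table. Alternatives were other scalings and filters, DESeq2 1.42.0, fits of 2 populations alone, other thresholds, a replicate block and leaving out each library. The named members are Col2a1, Col9a1, Col11a1 and Col1a1 and, for each comparison, the 8 called members without overlap that had the largest absolute log2 fold change; the other members are given by type, and up to 3 called genes of each further list with the largest change. Promoters are from RefSeq (GRCm38.p6, the build called mm10), trimmed by the exons of GENCODE vM21.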

Additional observations from a re-analysis of the deposited data

How the results depend on the processing

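The numbers of called collagen chain genes stayed within 1.5 times of those reported under DESeq2 size factors, library totals without scaling, no filter, a filter of 1 CPM in 3 libraries, the DESeq2 test, fits of 2 populations alone, an adjusted p of at most 0.05, the replicate block and every left-out library. Without the limit on the fold change they were 21 for S9-Pαhi against S9-JAG1+ LMPs, 22 for OCPs against S9-Pαhi LMPs and 26 for CBs against OCPs. Leaving out 1 library at a time gave 11 to 14, 12 to 15, 9 to 13, 19 to 24 (S9-SCA-1+ cells) and 36 to 38 (all populations jointly). The lowest values were reached without S9-JAG1+ replicate 3, OCP replicate 2, CB replicate 2 and S9-SCA-1+ replicate 3. No named log2 fold change reversed. Per length, the summed collagen level was 0.131, 0.229, 0.291, 0.416 and 0.121% in S9-JAG1+ LMPs, S9-Pαhi LMPs, OCPs, CBs and S9-SCA-1+ cells, a smaller scale by construction, and with all counted reads as denominator that of CBs was 0.761%. Without single libraries it was 0.268 to 0.288, 0.440 to 0.507, 0.544 to 0.575, 0.718 to 0.724 and 0.234 to 0.265%. The 10 leading chains per length were the same genes in each population with the longest transcript as length. With the replicate number as a block the calls were 13, 14, 12, 24 and 37. The numbers were not taken to pair the libraries, since deviations of same-numbered libraries correlated at -0.16 to 0.23 over 26 pairs (median -0.01) and 4 of 14 libraries correlated best with their own number. Depth limits the statements on Col6a5, Col6a6, Col17a1, Col19a1, Col28a1 and Col5a3, and on the 4 members that were not tested.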
